A study of Caenorhabditis elegans with 24 samples.

Results

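The superoxide dismutase and catalase genes of Caenorhabditis elegans are 8 of the 46934 genes in a count table of heat-shocked and untreated animals, and they were found by their WormBase symbols, sod-1 to sod-5 and ctl-1 to ctl-3. RNA-sequencing covered 24 libraries in 8 conditions with 3 biological replicates each, made from polyadenylated RNA of about 800 whole animals at day 1 of adulthood. The animals were N2 (wild-type), hsf-1FL (full-length hsf-1 overexpressed in neurons), hsf-1CTD (hsf-1 with a C-terminal deletion overexpressed in neurons) and hsf-1(sy441), a mutant of the endogenous gene with the same truncation, and each was either untreated (UT) or heat-shocked (HS). Heat-shocked animals spent 2 h at 34 °C and then 1 h at 20 °C to recover, and all animals ate HT115 bacteria carrying the pL4440 vector. Both transgenes were driven by the rab-3 promoter, which is active in neurons, while the RNA came from whole animals, so fewer cells of a type and less RNA per cell cannot be told apart. HSF-1 is the transcription factor that drives the heat-shock response, and the design asked how heat and these forms of hsf-1 change transcripts.

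Superoxide, a by-product of respiration, is turned by superoxide dismutases into hydrogen peroxide and oxygen, and catalases break the hydrogen peroxide down to water and oxygen. In C. elegans sod-1 encodes the main cytosolic copper/zinc enzyme, sod-5 a minor cytosolic one, and sod-4 an extracellular one. The manganese enzymes sod-2 and sod-3 work in mitochondria, with sod-2 the main form and sod-3 an inducible form that is widely used as a readout of DAF-16, the FOXO factor under insulin signalling. Among the catalases, ctl-2 is the main peroxisomal enzyme and ctl-1 is cytosolic.

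In the WBcel235 coordinates of the table, sod-1 (WBGene00004930) lies at II:6972706-6973887 and sod-2 (WBGene00004931) at I:8434550-8435807. The positions of the others are X:17092753-17094306 for sod-3 (WBGene00004932), III:9496884-9500375 for sod-4 (WBGene00004933) and II:4417633-4419130 for sod-5 (WBGene00007036). All 3 catalases lie head to tail on the minus strand of chromosome II, ctl-2 (WBGene00000831) at 14299556-14302027, ctl-1 (WBGene00000830) at 14303568-14306260 and ctl-3 (WBGene00013220) at 14307798-14310779. Gaps of 1540 and 1537 bases separate them, and the whole cluster spans 11224 bases. The catalases are close copies of each other, and how reads that match several genes were counted is not given in the sources used here, so the split of counts among them is uncertain. The exons of sod-4 share 175 bases with the antisense gene ctr-9, and reads there cannot be assigned by strand from the information at hand.

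Library totals ran from 11215696 to 19794446 counts. Levels are normalised read counts in CPM, a gene's count relative to its library total after scaling by trimmed mean of M-values (TMM) factors. The hsf-1 level was 125 to 151 CPM in untreated N2, 145 to 154 in hsf-1FL, 137 to 170 in hsf-1CTD and 49.5 to 103 in hsf-1(sy441), and the log2(fold-change) against N2 was 0.12 (adjusted P-value 1.0, SE 0.21), 0.16 (adjusted P-value 1.0, SE 0.21) and -0.87 (adjusted P-value 0.0274, SE 0.21). None of these passed an adjusted P-value under 0.01. The hsf-1(sy441) libraries still lay below those of N2 without overlap, as they did after heat (82.2 to 93.6 against 96.3 to 165 CPM). The whole-animal label was met by marker sums above 0 in every library for 6 tissues, with 29 to 32 of 32 sperm markers and every marker of the other 5 lists counted in each condition. Some libraries stood apart. The sum of the sperm markers in hsf-1(sy441) replicate 3 was 1223 CPM without heat and 1522 CPM with it, against 34.1 to 381 CPM in the other 4 libraries of that mutant, 7.75 to 17.7 CPM in N2, 7.93 to 19.7 CPM in hsf-1CTD and 42.4 to 451 CPM in hsf-1FL, whose replicate 1 held its highest sums. Body wall muscle markers were also highest in those libraries, at 8413 and 13253 CPM, and N2 replicate 1 had the highest level of the metallothionein mtl-1 of its group in both treatments.

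Per length, sod-1 and sod-2 made up most of the superoxide dismutase RNA and ctl-2 most of the catalase RNA in every library. Median levels over 24 libraries were 137 CPM per kilobase for sod-1, 91.9 for sod-2, 24.2 for ctl-2, 6.53 for sod-4, 3.803 for ctl-3, 2.98 for sod-3, 1.03 for ctl-1 and 0.286 for sod-5. As a share of the family per length, sod-1 held 48.7% to 63.3%, sod-2 29.8% to 46.1%, sod-4 1.67% to 8.24%, sod-3 0.203% to 4.35% and sod-5 0% to 1.89%. Of the catalase RNA, ctl-2 held 74.1% to 91.2%, ctl-3 5.26% to 23.4% and ctl-1 2.11% to 6.17%. The level of sod-1 per kilobase exceeded that of sod-2 in each of the 24 libraries, whereas the order of ctl-3 and sod-3 per kilobase changed between conditions. In untreated N2 the ctl-3 level per kilobase lay above that of sod-3 without overlap, and in untreated hsf-1(sy441) it lay below without overlap.

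The genes that varied least were also the most abundant. The highest library exceeded the lowest 1.59-fold for sod-1 and 1.90-fold for sod-2, against 27.8-fold for sod-3, 8.49-fold for ctl-1, 4.98-fold for sod-4, 3.83-fold for ctl-2 and 3.79-fold for ctl-3. For sod-5, 15 of 24 libraries held 3 counts or fewer and 5 held 10 or more, all heat-shocked. All 8 genes passed the filter of 10 counts in 3 libraries, sod-5 through heat-shocked libraries alone.

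**Figure D1:**
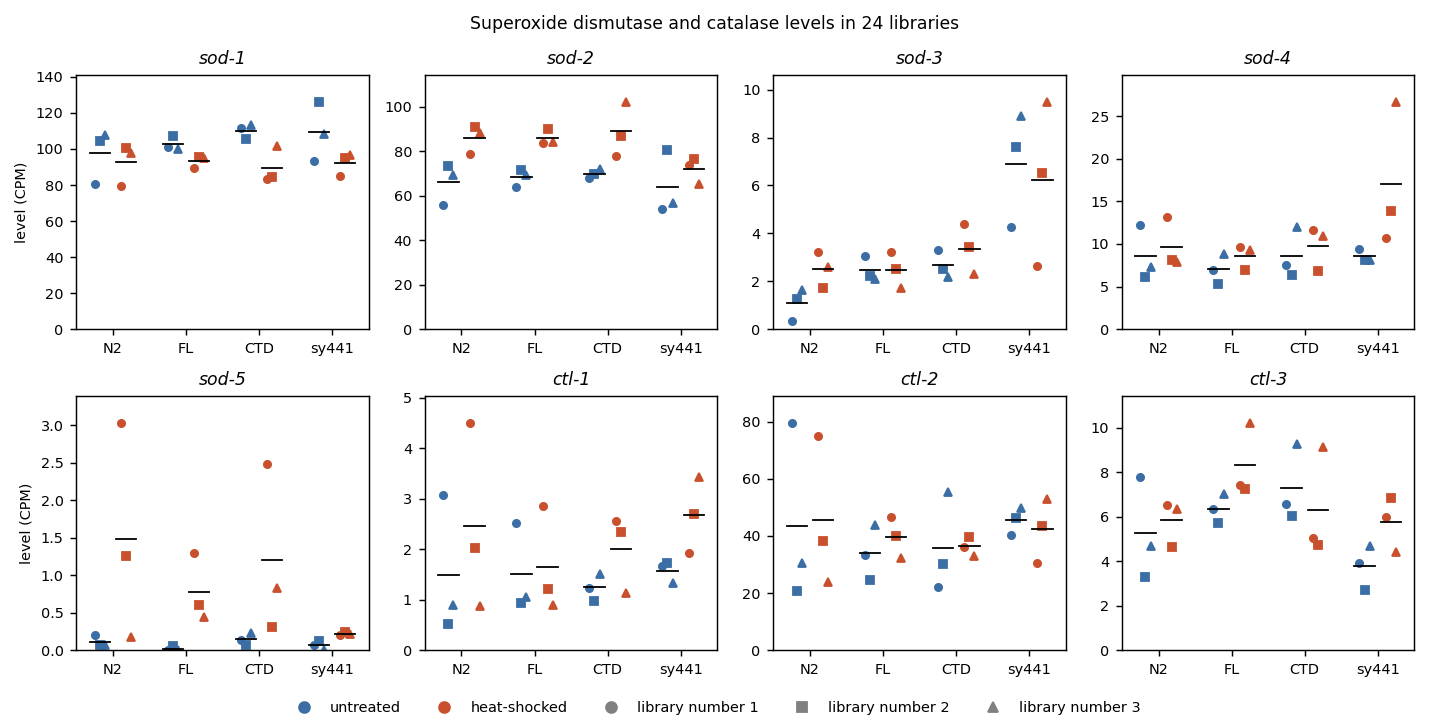
Level of each superoxide dismutase and catalase gene (CPM, linear axis from 0, one scale per gene) in each of 24 libraries, by genotype, with untreated libraries in blue, heat-shocked ones in orange, a marker shape for the replicate number and a line at the mean of 3. The heat-shocked sod-2 libraries sit above the untreated ones in N2, hsf-1FL and hsf-1CTD, and sod-3 is highest in hsf-1(sy441).

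Heat raised mitochondrial sod-2 by a small amount in the mean over the 4 genotypes, and the rare sod-5 had more counts after heat. In the mean of the heat responses of the 4 genotypes, 16.4% of the 15256 genes tested passed an adjusted P-value under 0.01 in edgeR, in either direction. Of the 8 genes 2 passed, sod-2 and sod-5, too few to set apart from that share, and sod-5 was among the genes tested through its heat-shocked libraries alone. The median log2(fold-change) was 0.31 over the 7 genes other than sod-5 and 0.01 over all genes tested. Within single genotypes 0 of the 8 passed, where the share of all genes that passed was 0.669% for N2, 0.819% for hsf-1FL, 0.964% for hsf-1CTD and 1.72% for hsf-1(sy441). An unadjusted p under 0.05 was reached by 3 of the 8 for N2 (12.2% of all genes), 2 for hsf-1FL (14.7%), 3 for hsf-1CTD (16.6%) and 1 for hsf-1(sy441) (19.4%). DESeq2 without surrogate variables also called 0 in each genotype and 2 in the mean. With surrogate variables, estimated hidden factors that the study's methods apply, DESeq2 called 1 for N2, 1 for hsf-1FL, 2 for hsf-1CTD, 2 for hsf-1(sy441) and 6 in the mean. The share of all genes that passed in DESeq2, with or without surrogate variables, is not given here, so these counts cannot be set against it.

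The sod-2 level in replicates 1 to 3 was 55.7, 73.6 and 69.4 CPM in untreated N2 and 78.8, 91.1 and 88.3 CPM after heat. In hsf-1FL it was 63.9, 71.6 and 69.3 CPM without and 83.9, 89.8 and 84.3 CPM with heat, and in hsf-1CTD 68.2, 69.8 and 72.0 CPM without and 78.004, 87.1 and 102 CPM with heat. Every heat-shocked library of these genotypes lay above every untreated one. Here and below, overlap of groups is a description only, since the share of all genes whose groups did not overlap is not given. In hsf-1(sy441) the levels were 53.9, 80.5 and 56.9 CPM without heat and 73.8, 76.7 and 65.4 CPM with it, and the groups overlapped because untreated replicate 2 was the highest of the 6. The log2(fold-change) with heat was 0.38 in N2 (adjusted P-value 0.208, SE 0.14), 0.33 in hsf-1FL (adjusted P-value 0.253, SE 0.14), 0.35 in hsf-1CTD (adjusted P-value 0.194, SE 0.14) and 0.17 in hsf-1(sy441) (adjusted P-value 0.563, SE 0.14). Their mean was 0.31 (adjusted P-value 0.00248, SE 0.07), with 12 of 12 heat-shocked libraries above the untreated mean of their genotype. The call was lost with surrogate variables in the edgeR model (0.22, adjusted P-value 0.0176). In hsf-1(sy441) the value went from 0.0433 without untreated replicate 1 to 0.36 without untreated replicate 2. Its difference in heat response from N2 was -0.20 (SE 0.20) and did not pass.

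The cytosolic counterpart sod-1 did not pass in any genotype. It ran at 80.6, 104.2 and 107.7 CPM in N2 without heat and 79.5, 101 and 97.9 CPM with heat, and at 101, 107.4 and 99.998 CPM in untreated and 89.4, 95.3 and 94.8 CPM in heat-shocked hsf-1FL. It was 112, 106 and 113.2 CPM without and 83.1, 84.5 and 101 CPM with heat in hsf-1CTD, and 93.3, 126 and 108 CPM without and 84.9, 95.1 and 96.9 CPM with heat in hsf-1(sy441). The heat-shocked libraries lay below the untreated ones without overlap in hsf-1FL and hsf-1CTD and overlapped them in N2 and hsf-1(sy441). The log2(fold-change) was -0.07 for N2, -0.14 for hsf-1FL, -0.30 for hsf-1CTD and -0.24 for hsf-1(sy441), and the mean of -0.19 (adjusted P-value 0.0313, SE 0.06) did not pass the threshold. It passed with the replicate number as a block within each genotype (-0.19, adjusted P-value 0.00222), where same-numbered libraries deviated together in 3 of 4 genotypes, and with surrogate variables (-0.27, adjusted P-value 0.000569 in edgeR).

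The balance between the main mitochondrial and cytosolic enzyme genes differed between treatments in every genotype. The level of sod-2 as a percentage of that of sod-1, both in CPM per kilobase, was 61.1% ± 2.92 (SD, n = 3) in untreated and 83.8% ± 4.53 in heat-shocked N2, and 59.6% ± 2.81 and 82.9% ± 2.699 in hsf-1FL. In hsf-1CTD it was 57.1% ± 2.24 without and 89.1% ± 4.32 with heat, and in hsf-1(sy441) 52.1% ± 5.10 without and 70.4% ± 8.87 with heat. The heat-shocked libraries lay above the untreated ones without overlap in each of the 4 genotypes. This ratio was chosen after the values were seen and was not tested. Within conditions the log2 levels of the pair moved together across 24 libraries, with a Pearson r of 0.80 after each condition's mean was removed.

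**Figure D2:**
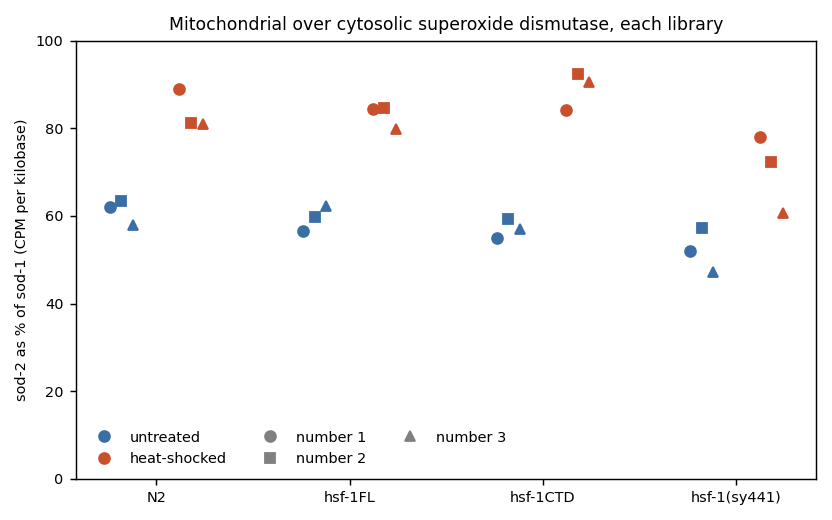
Level of sod-2 as a percentage of that of sod-1 in each library (both in CPM per kilobase, axis from 0), with untreated libraries in blue, heat-shocked ones in orange and a marker shape for the replicate number. Untreated group means lie between 52.1% and 61.1% and heat-shocked ones between 70.4% and 89.1%.

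The inducible cytosolic sod-5 was close to absent without heat. Its counts in replicates 1 to 3 were 3, 1 and 1 in untreated N2 and 60, 18 and 3 in heat-shocked N2, and 0, 1 and 0 in untreated and 20, 7 and 6 in heat-shocked hsf-1FL. In hsf-1CTD they were 2, 1 and 5 without and 30, 4 and 11 with heat. Replicate 1 held the most counts of the heat-shocked group in these 3 genotypes, and 11 of all 12 heat-shocked libraries exceeded every untreated library of their genotype in CPM, with N2 replicate 3 the exception. In hsf-1(sy441) the counts were 1, 2 and 0 without heat and 3 in each library with it, at or under the floor of 3 counts, so no fold is given for the mutant. Its heat-shocked libraries are among the 11.

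Counts summed over 3 libraries and set against their library totals gave a heat-shocked to untreated ratio of 13.9 in N2 (exact 95% counting interval 5.71 to 43.9), 8.01 in hsf-1CTD (3.74 to 19.7) and 37.8 in hsf-1FL (6.33 to 1538). These intervals cover counting error only, and the last has 1 untreated count behind it. The fitted log2(fold-change), which at such counts depends on the prior count of the model, was 3.63 in N2 (adjusted P-value 0.0753, SE 1.02), 4.72 in hsf-1FL (adjusted P-value 0.0387, SE 1.21) and 2.91 in hsf-1CTD (adjusted P-value 0.107, SE 0.97). Without heat-shocked replicate 1 these were 2.56 for N2, 4.14 for hsf-1FL and 1.85 for hsf-1CTD, and without untreated replicate 1 that of N2 was 4.31. The mean over the 4 genotypes, which takes in the fitted value of the mutant, was 3.23 (adjusted P-value 0.000184, SE 0.54), and 12 of 12 heat-shocked libraries were above the untreated mean of their genotype in CPM. The mutant libraries among these held 3 counts each. The P-value of the mean comes from a set of genes that sod-5 entered through heat-shocked libraries, and with no filter on counts the mean was 3.23 (adjusted P-value 8.51e-05, SE 0.55). Heat-shocked hsf-1(sy441) differed from heat-shocked N2 by -2.705 (adjusted P-value 0.0858, SE 0.96), which did not pass.

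Mitochondrial sod-3 was highest on average in hsf-1(sy441), with a call against N2 in untreated animals that few refits kept. Its level in replicates 1 to 3 was 0.342, 1.26 and 1.65 CPM in untreated N2, from 5, 19 and 24 counts, and 3.07, 2.20 and 2.11 CPM in untreated hsf-1FL. It was 3.32, 2.50 and 2.18 CPM in untreated hsf-1CTD and 4.27, 7.59 and 8.88 CPM in untreated hsf-1(sy441). All 9 untreated libraries of the other genotypes lay above all 3 of N2, and those of hsf-1(sy441) also above both transgenic lines. Against untreated N2 the log2(fold-change) was 1.18 in hsf-1FL (adjusted P-value 0.546, SE 0.51), 1.29 in hsf-1CTD (adjusted P-value 1.0, SE 0.51) and 2.66 in hsf-1(sy441) (adjusted P-value 0.00974, SE 0.52). The 3 comparisons share the N2 libraries, of which replicate 1 was the lowest. The list of DAF-16 activity markers described below, with 4 genes tested, had the opposite sign to sod-3 against untreated N2. Its median log2(fold-change) was -1.29 for hsf-1(sy441), -0.98 for hsf-1FL and -0.85 for hsf-1CTD, and 0 of the 4 passed. One listed marker, mtl-1, was highest in replicate 1 of untreated N2. Whether DAF-16 activity differed between genotypes was not tested.

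In untreated hsf-1(sy441) sod-3 was thus the 1 gene of 8 that passed, where 0.61% of all genes tested passed. An unadjusted p under 0.05 was also reached by 1 of the 8 alone, where 29.6% of all genes reached it. The sod-3 call was marginal. It held in 5 of 24 refits that each left out 1 library, with adjusted P-values from 0.00417 to 0.0415 and a log2(fold-change) from 2.24 (without N2 replicate 1) to 3.12 (without N2 replicate 3). Without both hsf-1(sy441) replicate 3 libraries it was 2.46 (adjusted P-value 0.0177), without both N2 replicate 1 libraries 2.27 (adjusted P-value 0.0290), and with surrogate variables 1.75 (adjusted P-value 0.0813), while DESeq2 gave 2.73 (adjusted P-value 1.86e-05). In untreated hsf-1(sy441) the libraries ranked by sod-3 as they did by the sperm marker sum (40.001, 381 and 1223 CPM in replicates 1 to 3), the body wall muscle sum (4928, 5311 and 8413 CPM) and the hypodermis and cuticle sum (866, 1300 and 1815 CPM). Each of these sums also lay above that of untreated N2 (7.75 to 14.6, 2373 to 3513 and 367 to 677 CPM) without overlap. Heat-shocked hsf-1(sy441) showed the same order, with sperm sums of 34.1, 122 and 1522 CPM, muscle sums of 6168, 7244 and 13253 CPM and hypodermis sums of 938, 1462 and 3257 CPM. In untreated N2 none of these sums had the order of sod-3. Replicates 1 to 3 there had sperm sums of 14.6, 7.75 and 8.19 CPM, muscle sums of 3513, 2863 and 2373 CPM and hypodermis sums of 462, 677 and 367 CPM. The sperm sum alone had that order in heat-shocked N2, and the transgenic lines matched some sums in some conditions. The other lists were mixed in untreated hsf-1(sy441). Its intestine sum ran in the reverse order of sod-3 (100205, 95028 and 87038 CPM) and overlapped untreated N2 (81527 to 118332 CPM). The oocyte and eggshell sum did not follow sod-3 either (8248, 8871 and 5374 CPM). The neuron sum had its order (265, 266 and 275 CPM) but overlapped untreated N2 (262 to 361 CPM). The part of any of these tissues in the sod-3 level was not tested.

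**Figure D3:**
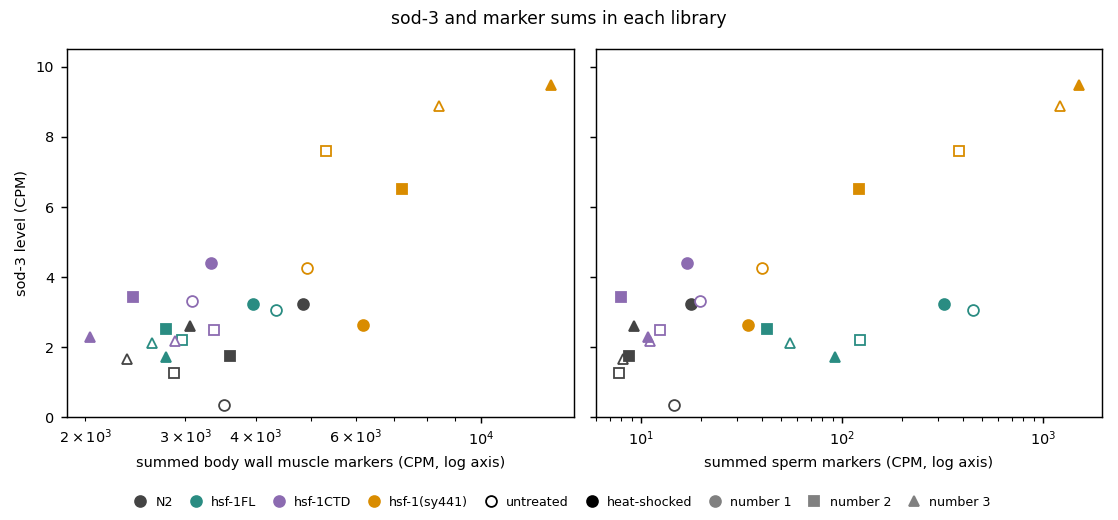
Level of sod-3 (CPM, axis from 0) against the summed body wall muscle markers (left) and sperm markers (right, both in CPM on log axes) in each of 24 libraries, coloured by genotype, open for untreated, filled for heat-shocked and shaped by replicate number. The hsf-1(sy441) replicate 3 libraries, at 8.88 and 9.49 CPM of sod-3, have the highest sums of both lists.

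After heat sod-3 stood at 3.24, 1.74 and 2.61 CPM in N2, 3.24, 2.51 and 1.70 CPM in hsf-1FL, 4.39, 3.42 and 2.28 CPM in hsf-1CTD and 2.64, 6.52 and 9.49 CPM in hsf-1(sy441). The mutant libraries then overlapped N2, and its difference from N2 was 1.29 (adjusted P-value 0.106, SE 0.49). Heat-shocked N2 lay above untreated N2 without overlap at a log2(fold-change) of 1.22 (adjusted P-value 0.297, SE 0.51), against 0.02 (SE 0.49) in hsf-1FL, 0.34 (SE 0.49) in hsf-1CTD and -0.15 (SE 0.48) in hsf-1(sy441). Set against the N2 response, the response differed by -1.37 in hsf-1(sy441) (adjusted P-value 1.0, SE 0.69) and -1.20 in hsf-1FL (adjusted P-value 1.0, SE 0.70).

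The extracellular enzyme gene sod-4 was even across most conditions. It lay between 5.35 and 13.1 CPM in the 18 libraries of N2, hsf-1FL and hsf-1CTD, with a log2(fold-change) with heat of 0.18, 0.28 and 0.18. In hsf-1(sy441) it was 9.47, 8.17 and 8.10 CPM without heat and 10.7, 13.8 and 26.7 CPM with heat. These groups did not overlap, and the log2(fold-change) of 0.99 (adjusted P-value 0.113, SE 0.35) did not pass. Replicate 3, with the high sperm and muscle sums, set much of it, since without that heat-shocked library the value was 0.49. The mean over genotypes was 0.41 (adjusted P-value 0.0950, SE 0.18). With surrogate variables in the edgeR model sod-4 passed in hsf-1(sy441), at 1.09 (adjusted P-value 0.00226).

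None of the 3 catalases passed in any of the 16 comparisons in edgeR without surrogate variables. Peroxisomal ctl-2 was 79.5, 20.7 and 30.5 CPM in untreated N2 and 75.1, 38.2 and 23.7 CPM in heat-shocked N2, so that replicate 1 was by far the highest N2 library in both treatments. The remaining 18 libraries lay between 22.2 and 55.4 CPM. The log2(fold-change) with heat was 0.07 for N2, 0.22 for hsf-1FL, 0.02 for hsf-1CTD and -0.10 for hsf-1(sy441), with a mean of 0.05 (95% interval -0.37 to 0.47, adjusted P-value 0.896). In N2 it ranged from -0.49 without heat-shocked replicate 1 to 0.84 without untreated replicate 1. Catalase RNA as a whole was 50.3 ± 35.2 CPM in N2 without heat (SD, n = 3) and 54.004 ± 28.7 CPM with heat, and 41.8 to 50.8 CPM on average in the other 6 conditions.

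Cytosolic ctl-1 showed the same high N2 replicate 1. Its level was 3.08, 0.530 and 0.894 CPM in untreated N2 and 4.50, 2.02 and 0.869 CPM in heat-shocked N2, 0.889 to 2.85 CPM in hsf-1FL and 0.986 to 2.57 CPM in hsf-1CTD. In hsf-1(sy441) it was 1.67, 1.74 and 1.33 CPM without heat and 1.92, 2.69 and 3.44 CPM with heat, without overlap, at a log2(fold-change) of 0.76 (adjusted P-value 0.590, SE 0.64). The mean over genotypes was 0.58 (adjusted P-value 0.202, SE 0.32). Within conditions ctl-1 and ctl-2 moved together over 24 libraries (Pearson r 0.79), as did sod-4 and ctl-2 (r 0.72). The third catalase ctl-3 had a lower r, 0.11 with ctl-1 and 0.40 with ctl-2. For the catalase pairs, the part of reads shared between the copies was not tested.

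The third catalase, ctl-3, was 7.80, 3.31 and 4.68 CPM in N2 without heat and 6.52, 4.66 and 6.37 CPM with it, and 6.36, 5.73 and 7.04 CPM in untreated and 7.46, 7.26 and 10.2 CPM in heat-shocked hsf-1FL. The hsf-1FL groups did not overlap, and their log2(fold-change) was 0.38 (adjusted P-value 0.714, SE 0.33). It was 6.58, 6.05 and 9.26 CPM without and 5.05, 4.74 and 9.14 CPM with heat in hsf-1CTD, and 3.93, 2.702 and 4.71 CPM without and 6.02, 6.84 and 4.41 CPM with heat in hsf-1(sy441). Both pairs of groups overlapped, and the mean over genotypes was 0.23 (adjusted P-value 0.332, SE 0.16).

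**Figure D4:**
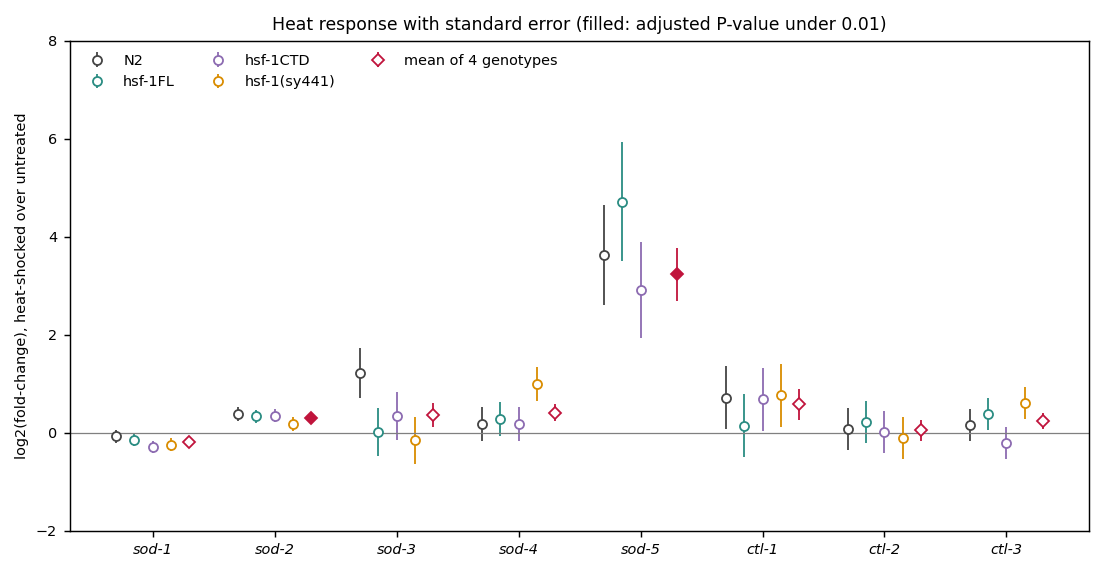
Log2(fold-change) of heat-shocked over untreated animals for each gene in 4 genotypes (circles) and as the mean of the 4 (diamonds), with standard errors, filled where the adjusted P-value is under 0.01, with no circle for sod-5 in hsf-1(sy441), where counts were at or under 3. The filled symbols are the means of sod-2 (0.31) and sod-5 (3.23), and sod-1 is the gene with a negative value in all 4 genotypes.

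None of the 8 genes passed the threshold in either neuronal hsf-1 line. Against untreated N2, 0 of 8 passed in hsf-1FL and in hsf-1CTD, where 0.0197% of genes passed in each, and 1 of 8 in each (sod-3) reached an unadjusted p under 0.05, as did 7.44% and 1.20% of all genes. Against heat-shocked N2, 0 of 8 passed where 0.0197% of genes passed in hsf-1FL and 0.0131% in hsf-1CTD, with 0 of 8 under an unadjusted p of 0.05. Between hsf-1FL and hsf-1CTD 0 of 8 passed untreated or heat-shocked, 0.00655% of genes passed in each, and 0 of 8 had an unadjusted p under 0.05. DESeq2 called 0 of 8 in each of these 6 comparisons. For the abundant genes the intervals were narrow. The difference of hsf-1FL from hsf-1CTD after heat was 0.05 for sod-1 (95% interval -0.19 to 0.30, adjusted P-value 1.0) and -0.05 for sod-2 (95% interval -0.32 to 0.22, adjusted P-value 1.0), and for sod-5 it was -0.61 (95% interval -2.33 to 1.10, adjusted P-value 1.0).

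Between heat-shocked hsf-1(sy441) and heat-shocked N2, 0 of 8 passed where 0.891% of genes passed, 3 of 8 (sod-3, sod-4 and sod-5) had an unadjusted p under 0.05 where 25% of all genes had, and DESeq2 called 0. The sod-2 libraries of the heat-shocked mutant lay below those of N2 without overlap, at a log2(fold-change) of -0.26 (adjusted P-value 0.260, SE 0.14). For the difference in heat response from N2, 0 of 8 passed in any of the 3 lines, 0% of all genes passed in each, 0 of 8 had an unadjusted p under 0.05, and DESeq2 called 0.

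Other genes of the antioxidant system were read from 9 lists of 65 genes, 60 of them tested. In the mean heat response, where 16.4% of all genes passed, 10 of the 60 rose and 8 fell, with a median log2(fold-change) of 0.06 against 0.01 over all genes tested. The lists are small, and their counts are given as a description. Next to sod-2, the mitochondrial peroxide-removing enzyme gene prdx-3 rose by 0.58 (adjusted P-value 8.06e-06, SE 0.07), as 1 of 3 peroxiredoxins, and 2 of 5 tested thioredoxins and thioredoxin reductases rose, mitochondrial trx-2 by 0.33 and cytosolic trxr-1 by 0.33. Of 8 glutathione peroxidases gpx-2 rose by 0.74 and gpx-7 fell by 1.03 on the log2 scale, and of 8 genes of glutathione synthesis and reduction the glutaredoxin glrx-10 rose by 0.71 and the glutathione reductase gsr-1 by 0.31.

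Of the 8 falling genes, 7 lay in lists of heme peroxidases and peroxins. Of 9 tested dual oxidases and heme peroxidases 4 fell and 0 rose, with a median of -0.76, among them skpo-3 (-2.18), the peroxidasin pxn-1 (-1.39) and mlt-7 (-1.36), a peroxidase of the cuticle. Of 11 peroxins, which build the peroxisomes that hold ctl-2, 3 fell, prx-12 (-2.02), prx-3 (-1.29) and prx-1 (-0.97), and the median was -0.01. Among 4 tested markers of DAF-16 activity, the small heat-shock gene hsp-12.6 (4.93) and mtl-1 (2.41) rose, and hsp-12.6 is also known as an HSF-1 target.

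Of 11 regulators 2 rose, near the share of all genes, akt-2 (0.90) and pdk-1 (0.53), both kinases of insulin signalling. The transcription factor genes themselves did not pass, with -0.13 for daf-16 (adjusted P-value 0.160, SE 0.06), 0.15 for skn-1 (adjusted P-value 0.133, SE 0.07) and -0.05 for hsf-1 (adjusted P-value 0.786, SE 0.10). Within genotypes the calls were hsp-12.6 (5.53), glrx-10 (1.14) and gpx-2 (0.91) upwards in hsf-1FL, hsp-12.6 (5.21) and gpx-2 (0.91) upwards in hsf-1CTD, and prx-3 (-1.55) downwards in hsf-1(sy441), with 0 of 60 in N2, where DESeq2 called 4 upwards and 1 downwards. In the comparisons between genotypes and of heat responses 0 of 60 passed in edgeR, whereas DESeq2 called up to 3 upwards and 2 downwards, in untreated hsf-1(sy441). The share of all genes that DESeq2 called is not given here, so its counts of list genes cannot be set against it.

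**Figure D5:**
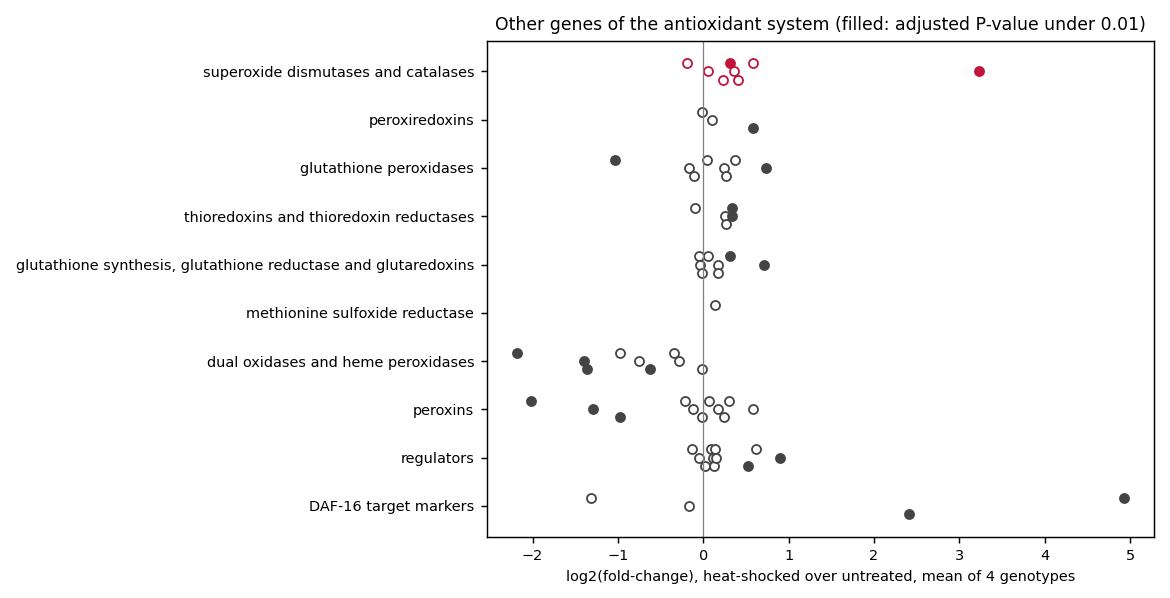
Mean log2(fold-change) over 4 genotypes of heat-shocked over untreated animals for the superoxide dismutases and catalases (top row) and the tested genes of 9 lists, filled where the adjusted P-value is under 0.01, with vertical jitter inside a row for legibility only. The dual oxidases and heme peroxidases lie at or below 0 with a median of -0.76, and hsp-12.6 is farthest right at 4.93.

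Genes with the most similar pattern were sought among 12275 tested genes with a mean of at least 1 CPM, by the Pearson r of log2 CPM over 24 libraries, which share treatment and library composition. The closest to sod-2 were rpb-4, an RNA polymerase II subunit (r 0.92), and mrpl-20, of the mitochondrial ribosome (0.90), and to sod-1 lelo-2 (0.88) and rpia-1 (0.87). For sod-3 they were F36H9.4 (0.83) and the glycolytic gpd-2 (0.83), for sod-4 tpra-1 (0.90) and F26F12.3 (0.89), and for sod-5 pqn-89 (0.88) and C39B5.16 (0.86). The catalases were nearest to ZK930.2 (0.87) and WBGene00044660 (0.87) for ctl-1, to the cholesterol transport gene ncr-1 (0.84) and the thioredoxin trx-3 (0.84) for ctl-2, and to R11D1.1 (0.77) and W09D6.1 (0.76) for ctl-3. Some of these values leaned on few libraries. Without the 2 libraries farthest from the gene's median, r was 0.81 for tpra-1, 0.77 for F26F12.3, 0.74 for trx-3 and 0.69 for R11D1.1. It stayed at 0.92 for rpb-4 and was 0.84 for W09D6.1.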

How the data were processed

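The authors deposited 1 table of raw counts per gene for 24 libraries, with gene lengths. They trimmed reads with Trim Galore 0.6.7-1, aligned them to WBcel235 with STAR 2.7.10a and counted them with featureCounts of Subread 2.0.3. Strand setting and handling of reads with several matches are not given in the sources used here. Columns were matched to samples by library name, and 0 were left over.

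Genes needed 10 or more counts in 3 or more libraries, which 15256 had. Their counts were scaled by TMM (factors 0.896 to 1.10) and fitted with edgeR 4.0.16 (limma 3.58.1, R 4.3.3), with a mean for each of 8 conditions. Quasi-likelihood F-tests were adjusted by Benjamini-Hochberg over the 15256 genes, with a call below an adjusted P-value of 0.01. The code was tested on simulated data. The biological coefficient of variation was 42.2%. CPM per kilobase used the deposited gene length. Alternatives used DESeq2 1.42.0 and 3 surrogate variables from sva 3.50.0, which the study's own methods apply. In pairs, same-numbered untreated and heat-shocked libraries deviated together in N2 (correlation 0.316 to 0.589), hsf-1FL (0.265 to 0.623) and hsf-1(sy441) (0.246 to 0.813) but not in every pair of hsf-1CTD (-0.05 to 0.272), and the labels do not state a pairing.

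The 8 genes and all lists were chosen with earlier results of these data known. All 8 are named. From each other list, at most 3 genes past the threshold in a comparison are named, by size of change and with a mean of at least 1 CPM, plus daf-16, skn-1 and hsf-1, and the 2 genes most alike in pattern to each of the 8. Sequences, a check of shared read windows and a promoter motif search were not analysed here.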

Additional observations from a re-analysis of the deposited data

How the results depend on the processing

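The rise of sod-2 in the mean of 4 genotypes passed under every alternative run but surrogate variables in edgeR. Across the alternatives outside leave-one-out, 196 counts of genes called stayed within 1.5 times and 19 did not. Most of those 196 were 0 in both settings, so their agreement says little. They also take in the mean of 4 genotypes in edgeR with surrogate variables, with 3 called in place of 2, although sod-2 was lost there. With surrogate variables, edgeR called 1 of the 8 genes for the heat response of N2, 1 for hsf-1FL, 1 for hsf-1CTD and 1 for hsf-1(sy441), and DESeq2 called 1, 1, 2 and 2, in place of 0. In the mean of 4 genotypes, DESeq2 with surrogate variables called 6 (sod-1, sod-2, sod-4, sod-5, ctl-1 and ctl-2) and a filter of 10 counts in every library, which removed sod-5, left 1, in place of 2. The shares of all genes that passed under these alternatives are not given here, so the counts do not set the 8 genes apart. An adjusted P-value under 0.05 added 1 call in hsf-1FL (sod-5). In the mean of 4 genotypes it gave 3 calls in place of 2, with the fall of sod-1 (-0.19, adjusted P-value 0.0313). In untreated hsf-1(sy441) against N2 the 1 call (sod-3) became 0 with surrogate variables in either tool, with library size scaling alone, with only the libraries compared, with 10 counts in every library and without both hsf-1(sy441) replicate 3 or both N2 replicate 1 libraries, the last 2 chosen after seeing the data. With a replicate block across groups it also became 0 (sod-3 2.67, adjusted P-value 0.0102). With the replicate number as a block within each genotype, sod-1 passed in the mean (-0.19, adjusted P-value 0.00222), as it did with surrogate variables. The pairing changed no other call.

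Signs of small changes turned in a few cases. With heat in hsf-1FL, sod-3 was -0.0893 and -0.0576 with surrogate variables in edgeR and DESeq2 and -0.0072 with the block within genotype. Heat in hsf-1CTD gave ctl-2 -0.0103 under the strict filter and ctl-3 0.0525 and 0.0958 with surrogate variables, which gave ctl-2 0.19 and 0.18 in hsf-1(sy441). The cause was not tested.

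Without each replicate in turn, the log2(fold-change) with heat in N2 ran from -0.193 to 0.0239 for sod-1, -0.10 to 0.53 for sod-4, -0.0553 to 1.78 for ctl-1, -0.49 to 0.84 for ctl-2 and -0.0906 to 0.55 for ctl-3. In hsf-1FL it ran from -0.22 to 0.23 for sod-3 and -0.51 to 0.74 for ctl-1, in hsf-1CTD from -0.22 to 0.48 for ctl-2 and -0.57 to 0.0011 for ctl-3, and in hsf-1(sy441) from -0.63 to 0.21 for sod-3 and -0.32 to 0.0903 for ctl-2. The mean of 4 genotypes ran from -0.0845 to 0.24 for ctl-2. The count in untreated hsf-1(sy441) went from 0 to 1. The depth of 11215696 to 19794446 counts limits sod-5, ctl-1 and sod-3 most. With 3 libraries a group, a missed call does not show that levels were alike.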
